A study of Homo sapiens with 2 samples.

Results

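The neutrophil chemokines grouped with CXCL8 are 10 genes, taken from the deposited array table by gene symbol. They are the ligands CXCL8 (written IL8 in the table), CXCL1, CXCL2, CXCL3, CXCL5, CXCL6, CCL2 and CCL20, and the receptors CXCR1 and CXCR2. They were measured by 14 probes that name a single gene, among 19412 genes so measured. Both groups are derivatives of A375SM, a highly metastatic human melanoma line, grown in serum-containing medium, and the labels name no other treatment. In the NFAT1-shRNA group the cells carried a lentiviral short hairpin RNA (shRNA) directed at NFAT1, the product of NFATC2 and a transcription factor activated by calcium signals. The NT-shRNA group carried a non-targeting shRNA and served as control. Both were sorted for the brightest 50% of GFP-expressing cells, so each is a sorted pool of transduced cells. The sources used here give neither the shRNA sequence nor the promoter that drives it.

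Chemokines are small secreted proteins that guide leukocytes along concentration gradients through G protein-coupled receptors. The CXC ligands listed above carry a glutamate-leucine-arginine motif before their first cysteines, bind CXCR2 and attract neutrophils. CXCL8 and CXCL6 also bind CXCR1. In melanoma, CXCL8 is known as an autocrine growth factor and as a promoter of angiogenesis, and CXCL1 was first described as melanoma growth-stimulating activity. NF-kB, AP-1 and C/EBP factors control the CXCL8 gene, and interleukin-1 and tumour necrosis factor are its classical inducers.

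RNA was hybridised to single-colour Cy5 arrays. Although 3 biological replicates per line are described, the table holds 1 combined normalized intensity per probe and line, each with a deposited error of unstated kind, so the spread of replicates could not be computed. Precision is limited by how few arrays there were. A probe is called detected at a detection p-value under 0.01, which held for 31.5% of probes in cells labelled NFAT1-shRNA and 30.1% in cells labelled NT-shRNA. The gene targeted by the shRNA, NFATC2, read 279.2 (error 15.7) in cells labelled NFAT1-shRNA and 199.4 (error 15.2) in cells labelled NT-shRNA on its brighter probe. Its other probe, detected in neither line, read 41.6 (error 9.55) and 57.8 (error 10.6) in the same order. The NFATC2 probe that was detected was thus not lower in the line labelled as its knockdown. The log2 ratios of NFATC2 per the authors' deposited table are 0.12 for the brighter probe, with a Benjamini-Hochberg adjusted p of 0.819, and -0.23 for the other, with an unadjusted p of 0.504. All directions below are between the lines as labelled, which no called change of the targeted gene bears out.

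Of the 10 genes, 3 were detected in both lines (CXCL8, CXCL1 and CCL20), CCL2 was detected in cells labelled NT-shRNA alone, and 6 were detected in neither line. Among all genes, 35.3% were detected in both lines. CXCL8 and CCL20 fell in cells labelled NFAT1-shRNA, by 2.40-fold and 1.84-fold in the ratios of the authors' deposited table. CXCL1 had nearly equal intensities in the lines, while its log2 ratio in that table was -0.38 and did not pass. No gene of the group rose.

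CXCL8 encodes interleukin-8, the principal neutrophil attractant of the group. Its brighter probe read 2014 with an error of 200.1 in cells labelled NFAT1-shRNA and 4268 with an error of 637.2 in cells labelled NT-shRNA. The intervals of 1 error around these intensities, 1814 to 2214 and 3630 to 4905, did not overlap. For this probe the authors' deposited table lists a log2 ratio (NFAT1-shRNA over NT-shRNA) of -1.26, and the 95% interval from the deposited errors was -1.77 to -0.75. Its adjusted p, by Benjamini-Hochberg adjustment of p in the authors' deposited table across every gene with a ratio, was 0.000303. In fold terms the interval ran from 1.69 to 3.41 in favour of cells labelled NT-shRNA. In a bulk extract, fewer cells making a transcript and less of it per cell cannot be told apart.

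The precision of the CXCL8 value was lower than that of genes of like intensity. Its error was 14.9% of the intensity in cells labelled NT-shRNA and 9.93% in cells labelled NFAT1-shRNA. For 597 genes within 1.5-fold of its mean intensity, the median relative error was 7.91% in cells labelled NT-shRNA and 6.02% in cells labelled NFAT1-shRNA. The dimmer CXCL8 probe read 39.5 (error 11.1) in cells labelled NFAT1-shRNA and 88.5 (error 22.4) in cells labelled NT-shRNA, and passed the detection threshold in neither. It has a log2 ratio of -1.22 per the authors' deposited table, which did not pass when adjusted over all probes (adjusted p = 0.205). The ratios of the CXCL8 probes differed by -0.04 on the log2 scale, with an interval of -1.23 to 1.14.

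**Figure D1:**
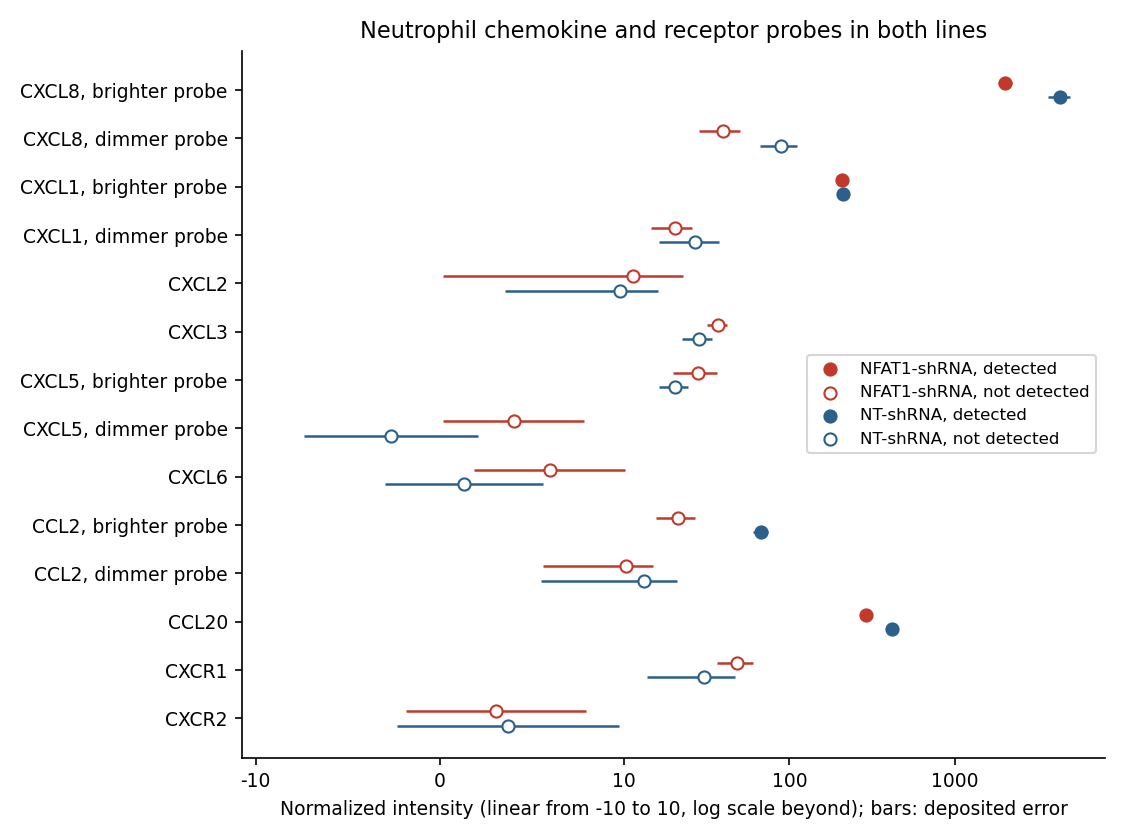
Normalized intensity of each of the 14 probes (x axis, linear near 0 and logarithmic beyond) in cells labelled NFAT1-shRNA (red) and cells labelled NT-shRNA (blue), with the deposited error as a bar and filled points where the probe was detected. The brighter CXCL8 probe stands at 2014 and 4268 and CCL20 at 288.9 and 414, while the brighter CXCL1 probe reads 207.8 and 209.3.

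The promoter of CXCL8 is shown because it holds the letters of an NF-kB and an AP-1 element close together. Promoter windows were taken from RefSeq on GRCh38.p14, 250 bases before to 50 after the gene start, and 9 of the 10 genes matched, all but CCL2. The letters searched on both strands were GGAATTTCC for NF-kB, TGANTCA for AP-1 and GGAAA for the core of NFAT sites. Every GGAATTTCC contains a GGAAA on its other strand, so those matches overlap. In the CXCL8 window this is the only GGAAA. Other spellings of an NFAT site were not searched, so the window may hold them. Capitals mark these letters in the CXCL8 window, at chr4:73740319-73740618 on the plus strand.
CXCL8: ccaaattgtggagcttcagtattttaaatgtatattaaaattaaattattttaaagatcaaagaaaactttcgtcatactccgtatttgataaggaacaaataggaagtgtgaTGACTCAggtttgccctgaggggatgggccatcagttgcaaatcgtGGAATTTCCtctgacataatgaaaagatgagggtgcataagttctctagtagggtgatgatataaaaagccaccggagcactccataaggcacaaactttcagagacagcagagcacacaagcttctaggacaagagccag

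The GGAATTTCC of CXCL8 lay 91 to 83 bases before the gene start and its TGACTCA 137 to 131 bases before it. GGAATTTCC was present in the windows of all 6 CXC ligands and in none of CCL20, CXCR1 and CXCR2, against 0.461% of all 35116 promoter windows. The 6 are not independent matches, since the 49 bases around it are nearly the same in some of them (48 shared by CXCL6 and CXCL5). TGANTCA was found in the CXCL8 window alone among the 9, against 7.71% of all windows. GGAAA was in all 9 windows, but 61.2% of all windows hold it, and in the 6 CXC ligands its presence follows from GGAATTTCC. A match of letters is a description of the window and does not show binding. Only a single exact spelling was searched for NF-kB, so a window without it may hold other forms of the site.

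The 6 CXC ligands are neighbours on the chromosome, in the order CXCL8, CXCL6, CXCL1, CXCL5, CXCL3 and CXCL2 with the platelet chemokine genes PF4V1, PF4 and PPBP among them. The 49 bases centred on GGAATTTCC are shown for each, since these genes share the element yet differed widely in detection. They are written 5′ to 3′ on the strand of the gene, with GGAATTTCC in capitals, for chr4:73740458-73740506 (CXCL8), chr4:73836569-73836617 (CXCL6), chr4:73869295-73869343 (CXCL1), chr4:73998739-73998787 (CXCL5), chr4:74038739-74038787 (CXCL3) and chr4:74099244-74099292 (CXCL2), the last 3 on the minus strand.
CXCL8: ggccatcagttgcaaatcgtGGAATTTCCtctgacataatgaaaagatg
CXCL6: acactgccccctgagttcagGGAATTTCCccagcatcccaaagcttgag
CXCL5: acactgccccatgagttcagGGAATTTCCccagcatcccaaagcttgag
CXCL1: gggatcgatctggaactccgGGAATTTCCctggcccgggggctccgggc
CXCL3: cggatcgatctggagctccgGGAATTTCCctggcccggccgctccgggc
CXCL2: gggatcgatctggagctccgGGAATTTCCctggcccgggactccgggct

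Without gaps, CXCL6 and CXCL5 shared 48 of 49 bases, and CXCL1 shared 45 with CXCL3 and 41 with CXCL2. CXCL8 shared 18 to 22 with the other ligands. The element lay 70 to 69 bases before the gene start at its near end in CXCL1, CXCL3 and CXCL2, and 83 to 81 bases before it in CXCL8, CXCL5 and CXCL6.

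**Figure D2:**
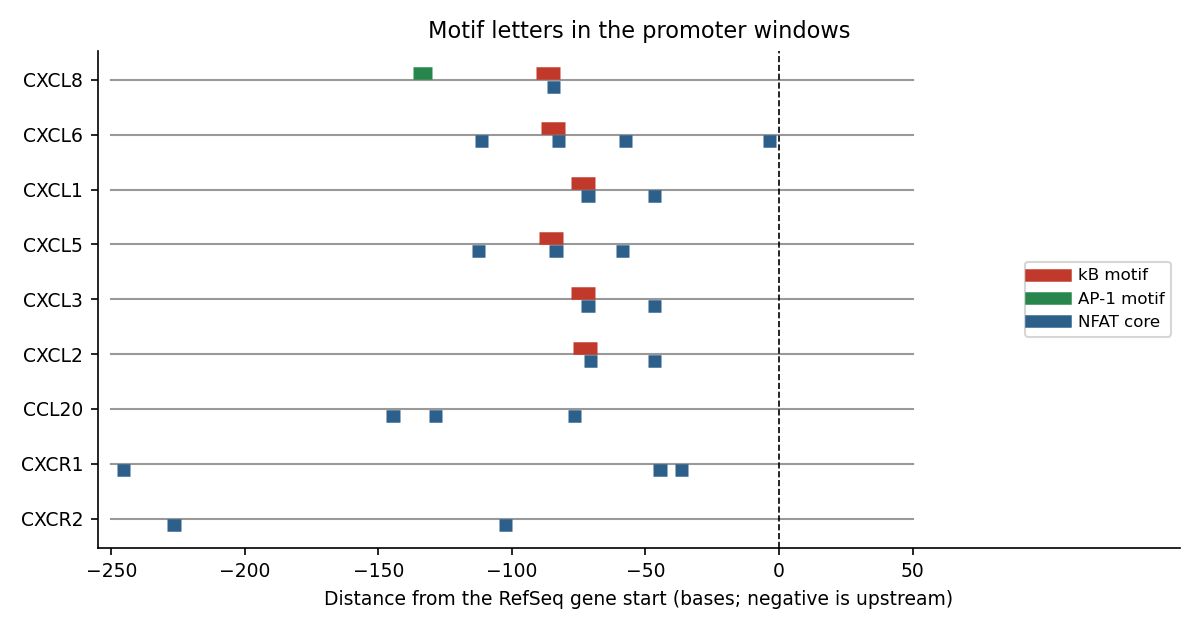
Positions of the searched letters in the promoter windows of 9 genes, as distance from the RefSeq gene start (x axis, bases), with the NF-kB letters in red, AP-1 in green and the NFAT core in blue. The red mark stands in all 6 CXC ligands between 91 and 69 bases upstream, and the green mark only in CXCL8.

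CXCL1, the melanoma growth-stimulating chemokine, was the other neutrophil-attracting CXC ligand detected in both lines. Its brighter probe read 207.8 (error 17.4) in cells labelled NFAT1-shRNA and 209.3 (error 13.7) in cells labelled NT-shRNA, so the intensities differed by far less than their errors. The authors' deposited table lists a log2 ratio of -0.38 for CXCL1, its interval being -0.68 to -0.08, an unadjusted p of 0.0442 and an adjusted p of 0.242, and it did not pass. The offset between that ratio and the plain quotient of the intensities, -0.37 on the log2 scale, was that of its intensity range, where 1927 genes within 1.5-fold had a median offset of -0.36. The other CXCL1 probe read 20.3 (error 5.66) and 26.9 (error 10.5) in NFAT1-shRNA and NT-shRNA cells respectively and was detected in neither. The CXCL1 window, at chr4:73869143-73869442 on the plus strand, is shown in full for comparison with that of CXCL8, with GGAATTTCC and a further GGAAA, read as TTTCC on this strand, in capitals.
CXCL1: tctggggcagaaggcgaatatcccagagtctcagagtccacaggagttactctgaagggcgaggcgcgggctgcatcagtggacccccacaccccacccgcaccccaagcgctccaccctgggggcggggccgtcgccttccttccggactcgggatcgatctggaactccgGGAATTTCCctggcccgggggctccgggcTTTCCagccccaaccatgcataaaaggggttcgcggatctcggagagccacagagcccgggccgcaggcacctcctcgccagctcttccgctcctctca

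The remaining CXC ligands were at background in both lines. CXCL2, a close relative of CXCL1, read 11.4 (error 11.2) in cells labelled NFAT1-shRNA and 9.81 (error 6.27) in cells labelled NT-shRNA. CXCL3, also of that subfamily, read 37 (error 5.26) and 28.3 (error 5.98), in the same order. The error intervals of CXCL2 and CXCL3 overlapped between the lines. The brighter CXCL5 probe, for the epithelial-derived neutrophil activator, read 28.3 (error 8.35) and 20.4 (error 3.97). The dimmer CXCL5 probe and the CXCL6 probe, the latter for granulocyte chemotactic protein, read at most 6.01 in either line, and 1 of these values was below 0. The authors' deposited table gives no ratio for any of these 5 probes. Over the 10 probes of the group detected in neither line, intensities ran from 3.05 to 48.4 in cells labelled NFAT1-shRNA and from -2.63 to 88.5 in cells labelled NT-shRNA, with 6 higher in the former and 4 in the latter. CXCL1, CXCL2 and CXCL3 transcripts are similar in sequence, and the sources used here hold no probe sequences, so cross-hybridisation among them was not tested.

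CCL20, the ligand of CCR6, attracts immature dendritic cells and lymphocytes and is a classical NF-kB target. Its single probe read 288.9 (error 24) in cells labelled NFAT1-shRNA and 414 (error 25.8) in cells labelled NT-shRNA, and the intervals of 1 error, 264.8 to 312.9 and 388.2 to 439.9, did not overlap. For CCL20 the authors' deposited table lists a log2 ratio of -0.88, the interval being -1.17 to -0.58 and the adjusted p 3.39e-08. By p-value it stood 64th among the 9516 genes with a ratio in the authors' deposited table, ahead of CXCL8 at 173rd, and its relative errors were 8.32% and 6.24%. The CCL20 window, at chr2:227813592-227813891 on the plus strand, holds no GGAATTTCC and no TGANTCA, with other NF-kB spellings not searched. Its 3 GGAAA matches are in capitals, 1 of them reading TTTCC on the strand shown.
CCL20: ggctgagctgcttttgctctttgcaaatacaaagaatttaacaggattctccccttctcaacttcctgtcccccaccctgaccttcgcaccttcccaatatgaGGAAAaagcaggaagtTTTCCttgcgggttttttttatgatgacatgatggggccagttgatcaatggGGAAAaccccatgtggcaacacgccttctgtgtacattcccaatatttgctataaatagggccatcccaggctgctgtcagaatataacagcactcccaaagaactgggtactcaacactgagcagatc

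CCL2, the monocyte chemoattractant that acts through CCR2, was detected in cells labelled NT-shRNA alone. Its brighter probe read 21.3 (error 5.59) in cells labelled NFAT1-shRNA and 67.2 (error 7.32) in cells labelled NT-shRNA, a difference of 4.99 times the combined error. The authors' deposited table gives no ratio or p-value for it, so it is not counted as a fall. The dimmest detected probe of cells labelled NFAT1-shRNA read 78.3. With the median shift between the lines (0.30 on the log2 scale) removed, CCL2 was by its point value at least 1.06-fold higher in cells labelled NT-shRNA. Without that step no bound holds, and the bound leaves out the error of 7.32, so it is not a confidence limit. The dimmer CCL2 probe read 10.3 (error 4.69) and 13.2 (error 7.66) in NFAT1-shRNA and NT-shRNA cells respectively and was detected in neither.

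Neither receptor was detected. CXCR1, the receptor of CXCL8 and CXCL6, read 48.4 (error 11.7) in cells labelled NFAT1-shRNA and 30.4 (error 16.5) in cells labelled NT-shRNA. CXCR2, the shared receptor of the neutrophil-attracting CXC ligands, read 3.05 (error 4.89) and 3.72 (error 6.02). For both receptors the error intervals overlapped between the lines, so a difference was not detectable at this signal.

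Of the 3 genes of the group with a ratio in the authors' deposited table, 2 fell and 1 did not pass, where 4.19% of all 9516 genes with a ratio fell, 3.35% rose, and 7.55% changed in either direction. CXCL8 also fell by at least 2-fold, as did 0.567% of all genes with a ratio. Ranked from the lowest ratio in the authors' deposited table, CXCL8 stood 34th, CCL20 123rd and CXCL1 1256th. The median ratio of the 3 was -0.88, against -0.02 over all genes. The ratios of CXCL8 and CCL20 differed by -0.38, with an interval of -0.97 to 0.20. Those of CXCL8 and CXCL1 differed by -0.88, with an interval of -1.47 to -0.29, and those of CXCL1 and CCL20 by 0.50, with an interval of 0.08 to 0.92. These intervals use the deposited errors as normal standard errors and are unadjusted for the 3 pairs. Since these 10 genes were chosen with results of the same data known, their shared direction is a description.

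**Figure D3:**
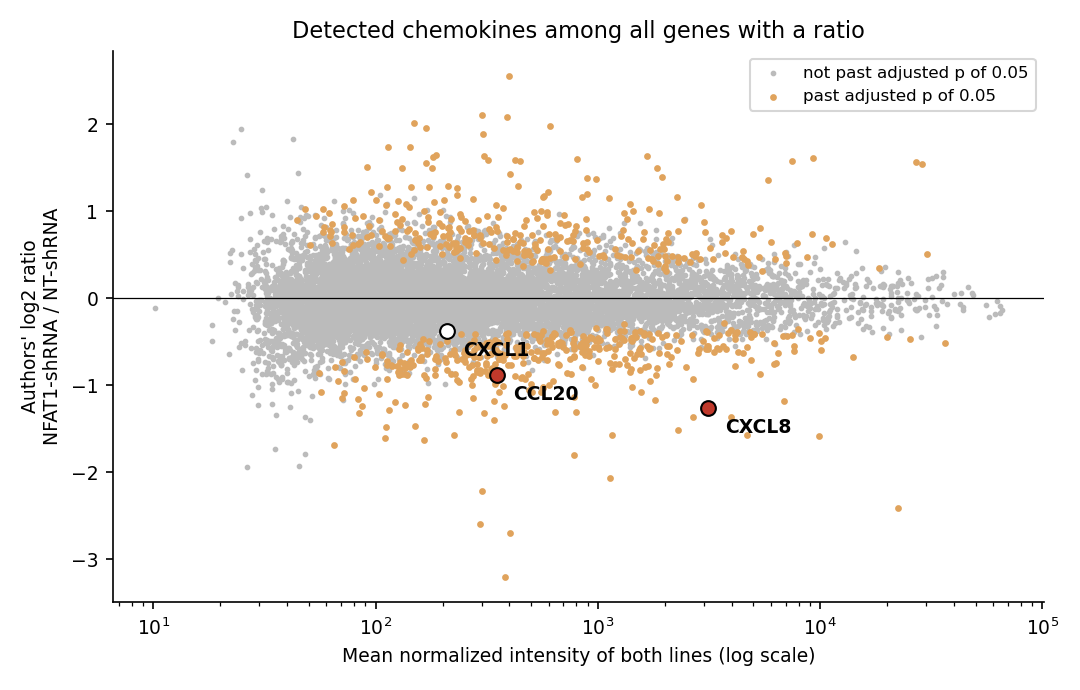
The authors' log2 ratio (y axis) against the mean normalized intensity of both lines (x axis, log scale) for all genes with a ratio, with genes past an adjusted p of 0.05 in orange. CXCL8 (-1.26) and CCL20 (-0.88), filled red, lie among the falls, and CXCL1 (-0.38), open, lies among genes that did not pass.

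The size of the differences depended on how the lines were scaled. The median gene was 0.30 higher in cells labelled NFAT1-shRNA on the log2 scale of the plain quotient. The plain log2 quotient of the intensities was -1.08 for CXCL8, -0.52 for CCL20 and -0.01 for CXCL1. With that quotient centred on the median gene the values were -1.39, -0.82 and -0.31 in the same order. CXCL8 and CCL20 were past the threshold on each of the 5 scales tried, and CXCL1 on none. The authors' ratio of CXCL8 lay -0.18 from its plain quotient, while 594 genes of like intensity had a median offset of -0.24, with 5th and 95th percentiles of -0.26 and -0.22. For CCL20 the offset was -0.36 and that of genes of like intensity -0.35.

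**Figure D4:**
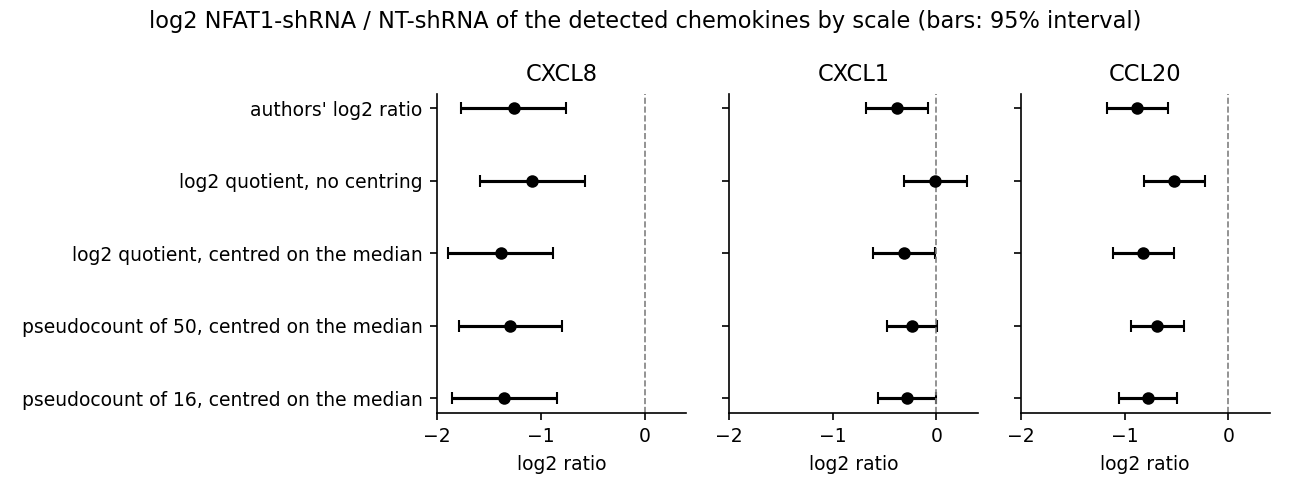
The log2 ratio between the lines, NFAT1-shRNA over NT-shRNA (x axis) for CXCL8, CXCL1 and CCL20 on 5 scales (rows), with 95% intervals from the deposited errors. All intervals of CXCL8 and CCL20 lie below 0. That of CXCL1 runs from -0.31 to 0.29 with no centring and from -0.48 to 0.00 with a pseudocount of 50. With the authors' ratio (-0.68 to -0.08), the centred quotient (-0.61 to -0.01) and a pseudocount of 16 (-0.56 to -0.004) it lies below 0.

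Among the 91 other genes past the threshold that were detected in both lines and lay within 2-fold of the CXCL8 intensity in cells labelled NT-shRNA, 5 had the ratios nearest to that of CXCL8. With only 2 lines, this likeness is that of a single ratio. They were IGFBP3, which binds insulin-like growth factors, NNMT, which methylates nicotinamide, the serine protease PRSS23, fibronectin (FN1) and the cytosolic DNA sensor AIM2. Per the authors' deposited table their log2 ratios were -1.17 for IGFBP3, -1.36 for NNMT, -1.36 for PRSS23, -1.51 for FN1 and -1.57 for AIM2, which differ from that of CXCL8 by 0.09 to 0.31 in size. IGFBP3, the nearest, read 1264 (error 52.1) in cells labelled NFAT1-shRNA and 2362 (error 124.8) in cells labelled NT-shRNA.

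Few other chemokines and chemokine receptors were detected, and the authors' deposited table gives ratios for 3 CXC, 5 CC and 6 receptor genes. Of these, 0 passed the threshold and 0 had an unadjusted p under 0.05, which held for 1828 of all 9516 genes with a ratio. On other scales CCL18 passed without centring and CXCR3 with a pseudocount of 50. Of 13 other CXC, XC and CX3C ligands, 11 were detected in neither line, among them the interferon-induced CXCL10, read at 3.67 and 7.04, and CX3CL1, read at 13.7 and 7.11 in NFAT1-shRNA and NT-shRNA cells respectively. PF4 and CXCL16 were the 2 detected in both lines. Of 21 other CC ligands, 19 were detected in neither line. CCL5, a T-cell and monocyte attractant, read 125.7 (error 9.22) and 128.3 (error 16.6) in NFAT1-shRNA and NT-shRNA cells respectively, and the authors' deposited table lists a log2 ratio of -0.36 (adjusted p = 0.557). Of 21 other receptors, 19 were detected in neither line, including CCR6 and CCR2, named here as the receptors of CCL20 and CCL2, and none in both. CXCR4 read 80.1 with an error of 169 in cells labelled NFAT1-shRNA and 63.7 with an error of 7.04 in cells labelled NT-shRNA, and ACKR3, a scavenger of CXCL12, was at background in both.

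IL1A, IL1B and TNFRSF1A rose among the inducing cytokines and their receptors, and IL1R1 fell. Of the 19 such genes with a probe, 8 had a ratio in the authors' deposited table, 4 of which did not pass, with a median of 0.68. IL1A, an alarmin form of interleukin-1, read 321.4 (error 32.9) in cells labelled NFAT1-shRNA and 101.3 (error 11.5) in cells labelled NT-shRNA. The authors' deposited table lists for IL1A a log2 ratio of 1.30, with an adjusted p of 5.22e-05. IL1B read 100.6 (error 7.58) and 26.6 (error 12.8) and was not detected in cells labelled NT-shRNA. With errors left out, it was at least 1.35-fold higher in cells labelled NFAT1-shRNA. IL1B passed with an adjusted p of 0.0181 from the authors' deposited table, although the interval from the deposited errors, -0.52 to 2.24, included 0. With p taken instead from the errors in the authors' deposited table, IL1B did not pass (adjusted p = 0.570). TNFRSF1A, the main receptor of tumour necrosis factor, read 298.2 (error 25) and 106.9 (error 12.1) in NFAT1-shRNA and NT-shRNA cells respectively and rose by 1.13 on the log2 scale per the authors' deposited table (adjusted p = 1.26e-08). IL1R1, the signalling receptor of interleukin-1, fell by 0.41 on the log2 scale in the authors' deposited table (adjusted p = 0.0383), with intensities of 462.3 and 485.3 in NFAT1-shRNA and NT-shRNA cells respectively. IL1R1 did not pass on any of the other 4 scales, where its adjusted p, from the errors in the authors' deposited table, ran from 0.0522 to 0.751. TNF itself was detected in neither line, at 31.9 and 18.9.

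No gene of NF-kB signalling passed on its brightest probe. With ratios averaged over probes and p from the errors in the authors' deposited table, CYLD, a deubiquitinase that restrains NF-kB, passed at -0.60 (adjusted p = 0.00395). With the quotient without centring, TNIP1, IKBKB and TRAF2 passed, all higher in cells labelled NFAT1-shRNA. Among 19 adaptors and kinases that carry the signal to NF-kB, 17 had a ratio in the authors' deposited table, 7 positive and 10 negative, with a median of -0.10. By brightest probe 0 of the 17 had an unadjusted p under 0.05, which held for 1828 of all 9516 genes with a ratio. A dimmer RIPK1 probe stood at -0.48 with an unadjusted p of 0.0402 in the authors' deposited table. Among 15 NF-kB subunits and feedback inhibitors, 11 had a ratio, 4 positive and 7 negative, with a median of -0.10 and 1 at an unadjusted p under 0.05. The subunits RELA and NFKB1 stood at -0.16 and -0.10 on the log2 scale per the authors' deposited table. The inhibitor NFKBIA, itself an NF-kB target, read 2337 (error 156.8) in cells labelled NFAT1-shRNA and 2376 (error 282) in cells labelled NT-shRNA, with a log2 ratio of -0.25 and an adjusted p of 0.448 in the authors' deposited table. TNFAIP3, the deubiquitinase A20 and another NF-kB target, stood at -0.47 per the authors' deposited table, with an unadjusted p of 0.0477 and an adjusted p of 0.254.

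Of 13 AP-1 and C/EBP factors, 9 had a ratio in the authors' deposited table, of which 1 rose and 1 fell. JUN, a partner in most AP-1 dimers, read 719.5 (error 38.2) in cells labelled NFAT1-shRNA and 821 (error 41.4) in cells labelled NT-shRNA. The authors' deposited table lists for JUN a log2 ratio of -0.51, with an adjusted p of 0.00328. JUN did not pass with the quotient without centring, at -0.19 (adjusted p = 0.177, from errors in the authors' deposited table). FOSL1, another AP-1 subunit, read 112.5 (error 12.1) and 49.1 (error 7.11) in NFAT1-shRNA and NT-shRNA cells respectively. It was not detected in cells labelled NT-shRNA and, with errors left out, was at least 1.51-fold higher in cells labelled NFAT1-shRNA. Its adjusted p from the authors' deposited table was 0.0164. Of 11 factors that act on AU-rich elements, which mark chemokine transcripts for decay, ZFP36L1, which read 215 (error 14.3) and 272.8 (error 24.2) in NFAT1-shRNA and NT-shRNA cells respectively, fell by 0.70 on the log2 scale in the authors' deposited table (adjusted p = 0.00747). Averaged over its 2 probes, with p from the errors of the authors' deposited table, ZFP36L1 did not pass (adjusted p = 0.181), nor did it with the quotient without centring. ZFP36 was detected in neither line, at 54.8 and 36.

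Among 17 other secreted factors that act on myeloid cells, 6 had a ratio in the authors' deposited table, of which LIF rose and LCN2 fell. LIF, a cytokine of the interleukin-6 family, read 378.4 (error 25.5) and 177.8 (error 14.9) in NFAT1-shRNA and NT-shRNA cells respectively, and the authors' deposited table lists a log2 ratio of 0.73 (adjusted p = 3.6e-05). LCN2, the neutrophil gelatinase-associated lipocalin, read 297.4 (error 25.3) and 392.5 (error 29.4) in the same order, with -0.75 in the authors' deposited table (adjusted p = 0.001). With the quotient without centring LCN2 stood at -0.40 and did not pass (adjusted p = 0.0572, from errors in the authors' deposited table). The probe for CSF3, the granulocyte colony-stimulating factor that drives neutrophil production, read 42487 (error 1989) in cells labelled NFAT1-shRNA and 37532 (error 3108) in cells labelled NT-shRNA. The authors' deposited table lists for CSF3 a log2 ratio of 0.05 (interval -0.22 to 0.32). IL6 and CSF2 were at background in both lines. Of 10 adhesion molecules and proteoglycans that hold or present chemokines, SDC2 fell by 0.74 on the log2 scale in the authors' deposited table (adjusted p = 0.00109). Of 16 proteases that can process chemokines, 8 had a ratio in the authors' deposited table, and 5 of these did not pass. CTSD rose and MMP3 and CTSL fell, at 0.79, -1.69 and -0.36 on the log2 scale per that table. Over all genes with a ratio, 7.55% changed in either direction. MMP3 read 37.4 (error 6.85) and 93.1 (error 14.2) in NFAT1-shRNA and NT-shRNA cells respectively. It was detected in cells labelled NT-shRNA alone and, with errors left out, was at least 1.47-fold higher there. CTSL did not pass with p adjusted over all probes of the authors' deposited table (adjusted p = 0.0526), nor with the quotient without centring.

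**Figure D5:**
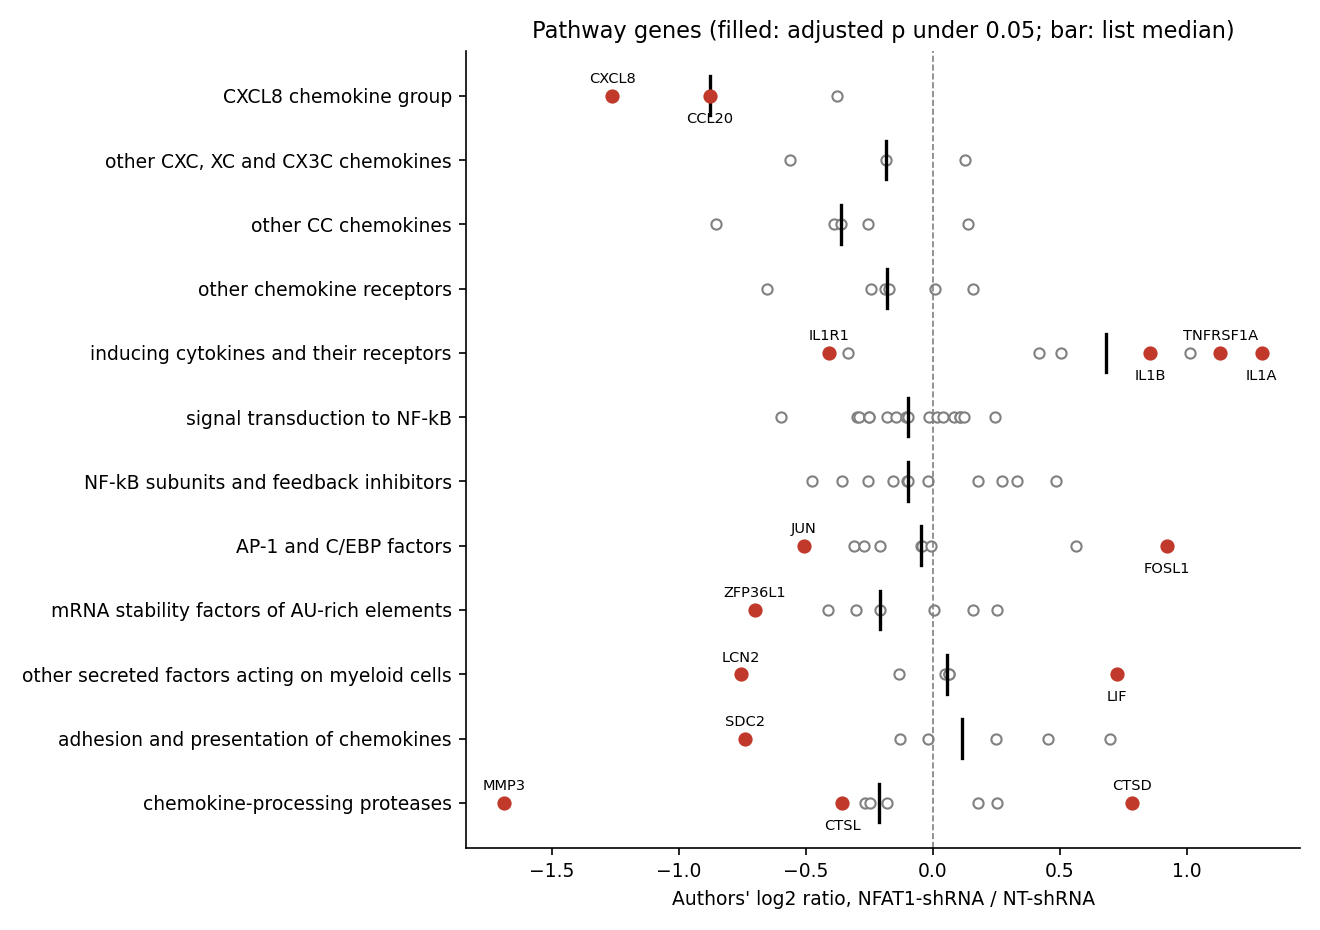
The authors' log2 ratio (x axis) of each gene with a ratio in the 12 pathway lists (rows), with genes past an adjusted p of 0.05 filled and named and the list median as a black bar. CXCL8 and CCL20 lie on the left, IL1A, IL1B and TNFRSF1A on the right, and no gene of NF-kB signalling is filled.

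The lines carried melanocytic and few leukocyte transcripts. Of 8 melanocytic markers, 7 were detected in both lines and TYRP1 in cells labelled NFAT1-shRNA alone, and their summed intensity was 3616 in cells labelled NFAT1-shRNA, or 2932 with the median shift removed, and 2270 in cells labelled NT-shRNA. Of the 7 with a ratio in the authors' deposited table, TYR and DCT rose, by 1.63 and 1.01 on the log2 scale, and 5 did not pass, among them MITF at -0.50, MLANA at -0.29 and SOX10 at 0.01. The median of the 7 was 0.13. A dimmer MITF probe, detected in both lines, went the other way at 0.60 per the authors' deposited table and did not pass. It read 280.2 (error 45.8) in cells labelled NFAT1-shRNA and 146.2 (error 42.7) in cells labelled NT-shRNA. Of 7 neutrophil markers with a probe only FPR1 was detected, in both lines, while MPO, ELANE and CEACAM8 were at background, and the summed intensity was 1263, or 1024 with the median shift removed, in cells labelled NFAT1-shRNA and 1074 in cells labelled NT-shRNA. None of 6 other leukocyte markers and none of 3 endothelial markers was detected. KRT14 was the only keratinocyte marker detected, and of 5 fibroblast markers LUM was detected in both lines and COL1A2, at 82.7 against 3.34, in cells labelled NT-shRNA alone. With errors left out, that COL1A2 probe was at least 1.30-fold higher there. The dimmer COL1A2 probe read 5.93 (error 5.64) and 7.48 (error 6.12) in NFAT1-shRNA and NT-shRNA cells respectively and was detected in neither. The part of melanocytic markers in the chemokine differences was not tested.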

How the data were processed

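The deposited table gives, per the file headers, 1 normalized intensity per probe and line on a linear scale, with the authors' error beside it in the same unit. How values were normalized and replicates combined, and what kind of error is given, the sources used here do not state. The detection p-value and the p-value of differential expression are those of the authors, per the file headers, with no method or adjustment named. The log2 ratio of the lines was likewise computed by the authors, and its centring is not described. The labels name an Illumina kit and chip beside a separate Cy5 labelling kit, and the array maker is left unnamed. No genome build of the probes is stated in them. Intensities in the deposited series matrix differed from the table by at most 5e-07.

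From these values, 25650 of 29187 probes named a single gene and 25400 were matched by Entrez number to RefSeq symbols (GRCh38.p14). The brightest probe by mean intensity stood for each gene, which gave 19412 genes, 9516 with a ratio. The authors' p-values were adjusted by the Benjamini-Hochberg method over those genes and called under 0.05. Intervals of 95% take the propagated deposited errors as normal standard errors. A bound ("at least") sets the bright value, with the median shift removed, against the dim value or, if greater, the smallest signal detected in the dim line. It uses point values and leaves their errors out. No value per array is in the table, so no linear model was fitted and no replicate was left out. The whole lines are 1 pool each, and these p-values carry only whatever spread the authors' error holds, which may be technical. Alternatives changed the scale, probe choice, error, adjustment and filter. Genes named are the 10 chemokines and receptors, in each other list those past the threshold and a set of anchor genes, and the 5 genes nearest to CXCL8. PF4, CXCL16, CCR2, CCR6, CYLD, TAB1, IL1RAP, TNIP1, IKBKB, TRAF2, CCL18, CXCR3, MITF, MLANA, SOX10, DCN, NFKBIZ, TYRP1, LUM, KRT14, COL1A2 and the undetected markers were named after their values were seen. The same holds for RIPK1, CEBPA, CEBPB, CEBPD, LTBR, GPC1, ICAM1, SDC3, MMP2, MMP14 and S100B. The members and lists were chosen with earlier results of these data known. The adjustment and threshold were run on simulated ratios with p from the errors, which does not test the authors' p-values behind the calls. Python 3.11.15, pandas 2.3.3, NumPy 2.4.6, SciPy 1.17.1 and matplotlib 3.10.9 were used.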

Additional observations from a re-analysis of the deposited data

How the results depend on the processing

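CXCL8 and CCL20 kept their direction and stayed past the threshold under the 8 alternatives of scale, probe averaging (with p from the deposited errors), error, adjustment and filter, with log2 ratios of -1.39 to -1.08 for CXCL8 and -0.88 to -0.52 for CCL20. The exception was the dimmer CXCL8 probe alone, at -1.22 with an adjusted p of 0.205. CXCL1 passed under none, with values of -0.38 to -0.01 and adjusted p from 0.109 to 0.978. The count of changed genes was 718, against 2278 with the quotient without centring and 423 at an adjusted p under 0.01. Of those calls 44.4% were higher in the NFAT1-shRNA line with the authors' ratio and 93.5% with the quotient without centring. The median of the inducing cytokines was 0.68 and became 1.12 with the centred quotient, and that of the other secreted factors went from 0.06 to -0.12. With the centred quotient IL1B and IL1R1 lost their calls and IL1RAP gained one, and IL1RAP also passed among detected genes only. With ratios averaged over probes and p from the deposited errors, CYLD and IL1RAP passed and IL1B and ZFP36L1 did not. With the errors alone replacing the authors' p, IL1RAP passed and IL1B did not, and IL1B has a single probe. List calls on the remaining scales, with p from the errors alone and with adjustment over all probes were added after seeing the data. Without centring, IL1R1, JUN, ZFP36L1, LCN2 and CTSL lost their calls. In that setting CEBPB, IL1RAP, LTBR, GPC1, ICAM1, SDC3, MMP2, MMP14, LUM, S100B and SOX10 gained calls, all higher in the NFAT1-shRNA line. So did CCL18, TNIP1, IKBKB and TRAF2. With either pseudocount IL1RAP and CEBPB passed and IL1R1 did not, and with a pseudocount of 16 IL1B did not. Detection at a p-value under 0.05 left the counts of detected genes of the group as they were and added the dimmer CXCL8 probe in the NT-shRNA line. No paired analysis was possible because each line has 1 combined value and the labels carry no replicate numbers. For the same reason no replicate could be left out in turn. Low signal limits 6 of the 10 genes, for which a difference was not detectable.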

Other observations

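A few probes carried an error larger than an intensity over 100, 12 of them for NFAT1-shRNA cells and 25 for NT-shRNA cells. The fibroblast proteoglycan DCN read 6267 (error 7799) in NFAT1-shRNA cells against 1.39 (error 4.07) in NT-shRNA cells, and NFKBIZ, a regulator of NF-kB target genes, read 127.7 (error 425.3) against 97.3 (error 17.4). None of the 14 chemokine and receptor probes had an error above an intensity over 100.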
